A study of Mus musculus with 9 samples.

Results

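The 36 genes described here are fetal-like and regenerative genes of the intestinal epithelium. They were chosen by name, with earlier results of these data known. Each was looked up among the 48795 genes of the deposited table through the symbols of GENCODE M21 (mouse genome GRCm38). All 36 are protein-coding, lie on 15 chromosomes, and were found in the table. They were measured by RNA-seq in 9 libraries of mouse colon organoids, which are spheres of epithelium grown from isolated crypts in Matrigel, here in WENR medium (Wnt-3A, EGF, Noggin and R-spondin-1) that enriches stem cells. WT organoids received DMSO (2 libraries) or 5 nM FICZ, a high-affinity ligand of the aryl hydrocarbon receptor AHR (3 libraries), and AHR KO organoids received DMSO (2 libraries) or 5 nM FICZ (2 libraries), in each case for 4 h. By the study's methods the KO carries floxed Ahr alleles deleted by Cre under the Villin promoter, which acts in intestinal epithelium, and WT controls were littermates on the same C57BL/6 background. The age of the animals was not given in the sources used here, and the labels do not say whether same-numbered libraries share an animal, so p-values measure the spread between these libraries only.

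After injury the gut epithelium passes through a transient state that resembles fetal epithelium, in which mature and stem cell programmes are set aside and wound-covering cells appear. Sca-1, the surface protein encoded by Ly6a, is the usual mark of this state, and clusterin (Clu), annexin A1 (Anxa1), the gap junction protein connexin 43 (Gja1) and the alarmin Il33 are further genes that it is known for. Freshly seeded organoids grown with Wnt ligand are known to pass through a similar state, and the comparisons below ask how the genes of this state stand with and without AHR, and how they respond to its ligand.

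Deposited values are normalised counts, and the 9 libraries sum to between 23177058 and 25033827. Ahr itself was not lower in the AHR KO libraries: it read 787 and 858 in WT DMSO, 783 to 798 in WT FICZ and 1346 to 1443 in AHR KO libraries. A count summed over all exons does not check a deletion of part of the gene, so AHR KO is used below as the label of these libraries. Cyp1b1, a target gene of AHR, lay between 25.4 and 222 in AHR KO and between 1078 and 10600 in WT libraries. All 8 epithelial markers were abundant, with a summed level of 308149 to 335022, although Epcam was lower in AHR KO (21237 to 25811) than in WT (31458 to 35708), and so was Cdx2. Of 10 immune markers 5, Ptprc, Cd4, Lyz2 and Adgre1 among them, were at 0 in every library. Only 2 of the 10 rose above 3 in any library. Neither of these 2 was called between genotypes in limma. Their log2 differences (AHR KO minus WT) were 0.02 and 0.11 under DMSO, and 0.33 and 0.62 under FICZ. Of 10 fibroblast markers Lum was at 0 and Col1a1, Dcn and Pdgfra stayed at or below 4.34. Only Pdgfrb among these 10 had a mean over 10, and it was higher in WT (55.7 to 110) than in AHR KO libraries (15.3 to 34.5). The summed fibroblast markers were 59.4 to 112 in WT and 21.8 to 41.3 in AHR KO, the immune markers 481 to 585 in WT and 504 to 725 in AHR KO, and the endothelial markers 0 to 5.27 in WT and 0.685 to 4.35 in AHR KO. These lists moved with genotype in part, and their part in the results was not tested.

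The module was highly expressed in these organoids. Per kilobase of the longest transcript, the median member had 2308 normalised counts, and 21 of 36 members lay above the 90th percentile of all genes tested. The calcium-binding protein S100a11 led with 54788 per kb, followed by Ly6a with 33878, S100a6 with 17633, Ly6e with 15532 and Anxa2 with 15177. At the other end the bone and wound matrix protein osteopontin (Spp1), the antimicrobial lectins Reg3b and Reg3g and the surface protein Cd109 had 0.767 to 8.82 per kb. Gja1, with 28.8 per kb, Basp1, a membrane-bound cytoskeletal protein, with 53.3, and the protease urokinase (Plau), with 53.6, were the lowest of those tested. S100a11 shares 41.1% of its 50-base windows with pseudogenes, and Ly6c1 shares 31.7% with Ly6c2, so the levels of these 2 genes depend on how shared reads were divided. Tpm4 shares 12.1% and Spp1 9.05% with a pseudogene, and Ly6a shares 4.42% with Ly6c1 and 3.42% with Ly6i.

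**Figure D1:**
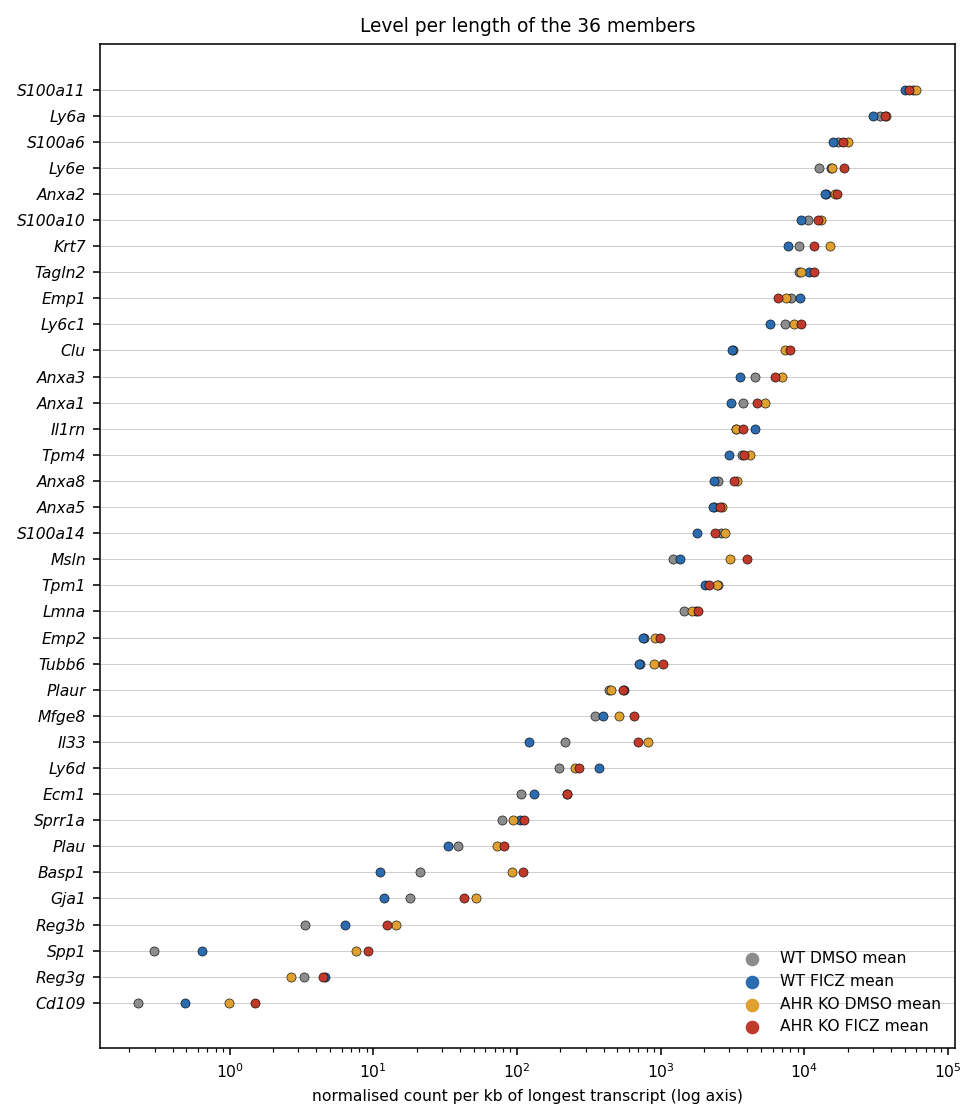
Level of each of the 36 members as normalised count per kilobase of its longest transcript (horizontal log axis), with 1 point for the mean of each of the 4 groups and genes ordered by their mean over all 9 libraries. Levels run from 0.767 per kb for Cd109 to 54788 for S100a11, and the 2 AHR KO means stand to the right of both WT means for genes such as Clu, Msln, Il33, Basp1 and Gja1.

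Several members lie in gene clusters. Ly6d, Ly6e, Ly6a and Ly6c1 lie at chr15:74762056-74763620, chr15:74955051-74959905, chr15:74994877-74998031 and chr15:75044018-75048830 (GRCm38), in the Ly6 cluster. The S100 members are on chromosome 3, S100a14 at chr3:90526856-90528837, S100a6 at chr3:90612882-90624181, S100a11 at chr3:93520488-93526287 and S100a10 at chr3:93555080-93564643. Sprr1a lies between S100a6 and S100a11, at chr3:92483952-92485895. In all 8 members are on chromosome 3 and 6 on chromosome 15.

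RefSeq promoter windows (build GRCm38.p6, reaching from upstream of a gene's start to just past it) were matched for 25 of 36 members, in 32 windows because some genes have several starts. Each was searched on both strands for 3 motifs: GCGTG, the core bound by AHR with its partner ARNT, GGAATG, bound by TEAD factors, and TGANTCA, bound by AP-1 and equal to its own reverse complement. GCGTG was in 8 of 32 member windows (25%, against 32.4% of all 32851 windows), GGAATG in 6 (18.8% against 14.7%) and TGANTCA in 9 (28.1% against 7.81%). The 9 members with TGANTCA were Il1rn, Lmna, Sprr1a, S100a11, Ecm1, Emp1, Plaur, Anxa2 and Gja1. A match is a description of the sequence, not evidence of binding. Shown here are windows of 5 members that the comparisons below turn on, with any of the 3 motifs in capitals, 4 of them picked because they hold a motif: the first start of Il33 (chr19:29924863-29925162, plus strand), Gja1 (chr10:56377050-56377349, plus strand), Ecm1 (chr3:95739520-95739819, minus strand) and the first start of Il1rn (chr2:24336610-24336909, plus strand), where TGANTCA and GCGTG overlap. The window of Krt7 (chr15:101412153-101412452, plus strand), like that of Basp1, holds none of the 3.
Il33: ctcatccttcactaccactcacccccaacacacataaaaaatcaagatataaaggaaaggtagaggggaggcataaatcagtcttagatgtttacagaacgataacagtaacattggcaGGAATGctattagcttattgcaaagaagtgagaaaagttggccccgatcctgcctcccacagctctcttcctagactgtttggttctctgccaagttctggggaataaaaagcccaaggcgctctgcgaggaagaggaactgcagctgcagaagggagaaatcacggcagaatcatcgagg
Gja1: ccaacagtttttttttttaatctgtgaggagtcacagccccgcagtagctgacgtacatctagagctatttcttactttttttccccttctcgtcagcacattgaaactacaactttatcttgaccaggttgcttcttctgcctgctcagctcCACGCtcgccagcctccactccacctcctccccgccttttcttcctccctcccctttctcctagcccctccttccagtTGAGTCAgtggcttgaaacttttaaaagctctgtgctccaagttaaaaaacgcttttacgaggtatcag
Ecm1: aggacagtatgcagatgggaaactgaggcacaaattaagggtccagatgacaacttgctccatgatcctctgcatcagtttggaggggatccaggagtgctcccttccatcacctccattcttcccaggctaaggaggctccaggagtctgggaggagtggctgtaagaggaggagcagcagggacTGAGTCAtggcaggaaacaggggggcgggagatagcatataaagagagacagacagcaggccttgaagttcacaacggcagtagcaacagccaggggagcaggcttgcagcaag
Il1rn: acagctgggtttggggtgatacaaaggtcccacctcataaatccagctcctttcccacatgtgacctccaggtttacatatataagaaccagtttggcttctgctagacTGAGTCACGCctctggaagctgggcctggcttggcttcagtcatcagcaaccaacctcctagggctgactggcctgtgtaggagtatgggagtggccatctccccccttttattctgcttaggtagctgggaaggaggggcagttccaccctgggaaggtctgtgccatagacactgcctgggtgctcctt
Krt7: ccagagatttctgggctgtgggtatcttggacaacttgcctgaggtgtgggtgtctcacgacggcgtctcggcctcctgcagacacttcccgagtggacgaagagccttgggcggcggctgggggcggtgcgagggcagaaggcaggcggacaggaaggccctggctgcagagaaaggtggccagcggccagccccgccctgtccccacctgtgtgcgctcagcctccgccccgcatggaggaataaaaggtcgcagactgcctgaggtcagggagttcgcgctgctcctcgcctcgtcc

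Without added FICZ, 14 of the 32 members tested were called higher in AHR KO than in WT organoids, and none was called lower. The genes that rose most were Basp1, Il33, Gja1, Msln, Clu and Ecm1, each by more than 2-fold, and Krt7, Anxa3, Mfge8, Anxa1, Anxa8, S100a10, Ly6e and Emp2 rose by smaller amounts. A gene is called here when its adjusted p is under 0.05 in limma, with all 12741 genes of mean 10 or more tested together. Over all genes 9.05% were called, 4.21% higher and 4.83% lower in AHR KO. The median log2 difference was 0.27 over the members and -0.01 over all genes. Since the members were chosen with earlier results of these data known, the share over all genes is not an independent yardstick for them. With FICZ in both genotypes, 24 of 32 members were called, 22 higher and 2 lower in AHR KO, beside 20.0% of all genes (9.48% higher and 10.5% lower), and the median difference of the members was 0.39 on the log2 scale.

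These 2 genotype comparisons share no library, but the same label numbers (1 and 3 of AHR KO, 2 and 3 of WT) occur in both, and both use 1 fitted variance per gene, so they are not independent of each other. All 14 members called under DMSO were called in the same direction under FICZ, which is 14 of the 24 called there. Of the 32 members tested, 20 had every AHR KO library above every WT library whatever the treatment, beside 7.76% of all genes, and Emp1 had every AHR KO library below, beside 7.82%. In bulk RNA, more cells in which a gene is active and more RNA per cell cannot be told apart.

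**Figure D2:**
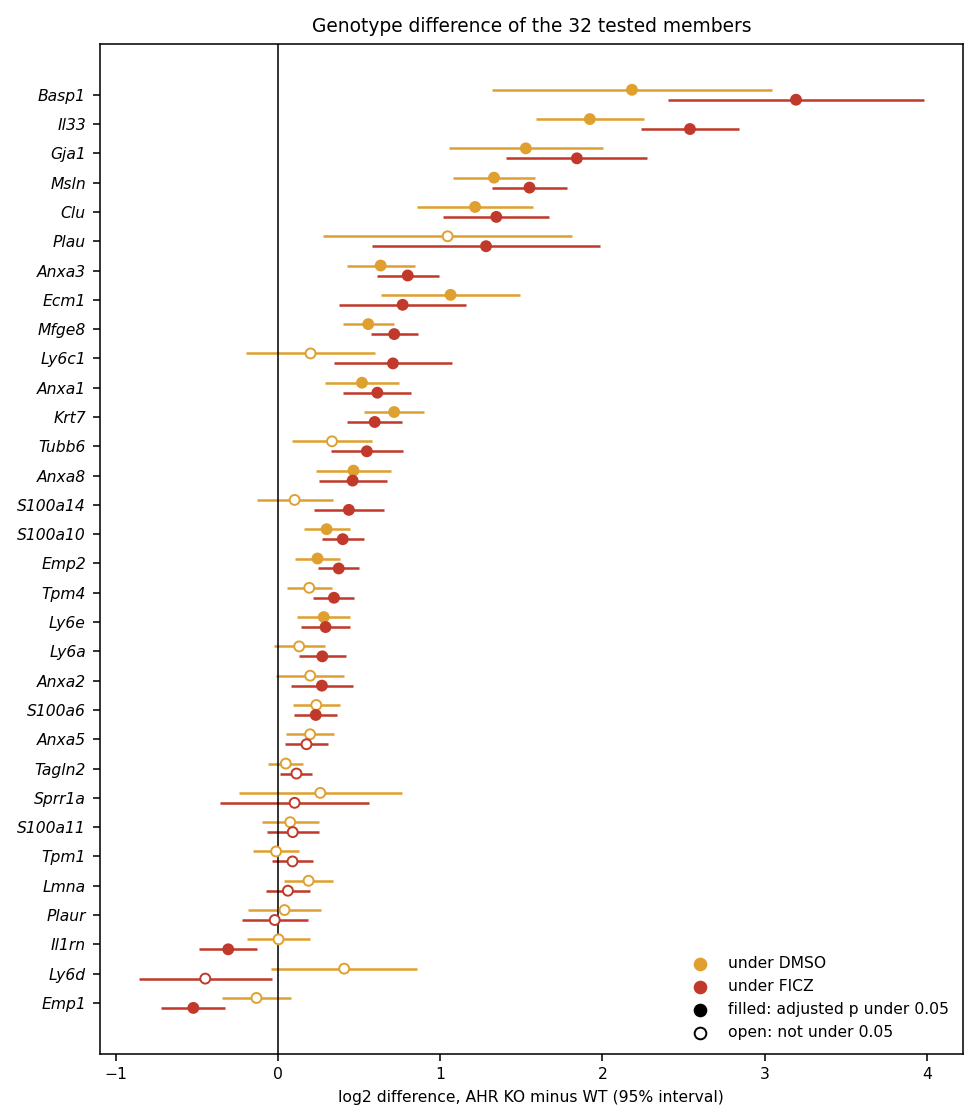
Log2 difference between AHR KO and WT (horizontal axis) of the 32 tested members under DMSO and under FICZ, with 95% intervals from limma and filled points where the adjusted p is under 0.05. Basp1, Il33, Gja1, Msln and Clu stand furthest to the right under both treatments, and the filled points of Emp1 and Il1rn lie left of 0 under FICZ.

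The alarmin Il33, a cytokine of the IL-1 family that barrier cells release on damage, showed the firmest difference. Its normalised counts were 584 and 512 in WT DMSO, 247, 358 and 321 in WT FICZ, 2098 and 2052 in AHR KO DMSO, and 1675 and 1889 in AHR KO FICZ. The groups of the 2 genotypes did not overlap under either treatment. The log2 difference was 1.92 ± 0.15 (SE) under DMSO and 2.54 ± 0.14 under FICZ, with adjusted p of 7.74e-05 and 2.14e-06 in limma. Il1rn, the other cytokine of the module and an antagonist of the IL-1 receptor, behaved differently. It read 8664 and 8351 in WT DMSO, 11386, 12285 and 11312 in WT FICZ, 8489 and 8576 in AHR KO DMSO, and 10493 and 8471 in AHR KO FICZ. The genotypes overlapped under DMSO, and under FICZ AHR KO was lower by -0.31 ± 0.08 on the log2 scale (limma, adjusted p = 0.0233), a call that was lost without AHR KO FICZ replicate 3 (-0.15) and with only the groups compared (adjusted p = 0.0637). Without AHR KO FICZ replicate 1 the difference was -0.46, still called.

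Of the secreted, surface and junction proteins, 5 of the 6 tested were called higher in AHR KO under DMSO and all 6 under FICZ. The shares of all genes called higher were 4.21% and 9.48%. Clusterin, a secreted chaperone that marks revival stem cells, read 6675 and 4943 in WT DMSO, 6563, 5327 and 5146 in WT FICZ, 13384 and 13294 in AHR KO DMSO, and 12565 and 16393 in AHR KO FICZ. Mesothelin (Msln), a surface glycoprotein involved in adhesion, read 2808 and 2461 in WT DMSO, 2623, 3364 and 2833 in WT FICZ, 6420 and 6824 in AHR KO DMSO, and 7983 and 9195 in AHR KO FICZ. Both genes were thus more than 2-fold higher in AHR KO with no overlap. The log2 differences of Clu were 1.22 ± 0.16 under DMSO and 1.35 ± 0.15 under FICZ, and those of Msln 1.33 ± 0.11 and 1.55 ± 0.10. Gja1, whose protein forms gap junctions between cells, was low in all libraries, with 78.9 and 60.3 in WT DMSO, 36.3, 50.4 and 51.0 in WT FICZ, 204 and 197 in AHR KO DMSO, and 159 and 172 in AHR KO FICZ. It was higher in AHR KO by 1.53 ± 0.21 under DMSO and 1.84 ± 0.20 under FICZ.

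Mfge8, which bridges dying cells to integrins of phagocytes, read 858 and 772 in WT DMSO, 958, 904 and 907 in WT FICZ, 1189 and 1208 in AHR KO DMSO, and 1527 and 1507 in AHR KO FICZ. The differences were 0.56 ± 0.07 and 0.72 ± 0.06 on the log2 scale, with limma adjusted p of 0.00125 under DMSO and 4.98e-05 under FICZ. The matrix protein Ecm1 read 168 to 297 in WT and 395 to 448 in AHR KO, and Plau 50.9 to 130 in WT and 161 to 208 in AHR KO. Both thus kept the genotypes apart, and Plau was called under FICZ (1.28 ± 0.32) and not under DMSO (1.05 ± 0.35). The DMSO difference of Plau was 1.72 without WT DMSO replicate 2 and 0.38 without WT DMSO replicate 3. With the replicate block it was 1.41 and called (limma, adjusted p = 0.0256). This block groups libraries by label number alone, so WT and AHR KO libraries of the same number share a block. Spp1 was under the filter, with 0 to 1.88 in WT and 9.74 to 17.7 in AHR KO libraries. Fitted without the filter it was called under both treatments, with limma adjusted p of 0.0287 and 0.0121. Cd109, a surface protein that binds TGF-beta, had 0 to 4.83 in WT and 1.84 to 9.80 in AHR KO, with no call when fitted without the filter.

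The annexins are proteins that bind membranes in the presence of calcium, and they include the resolution mediator Anxa1. Of 5 annexin members, 3 were called higher in AHR KO under DMSO and 4 under FICZ, beside 4.21% and 9.48% of all genes. Anxa3 read 7498 and 6874 in WT DMSO, 5146, 6427 and 5550 in WT FICZ, 11308 and 10971 in AHR KO DMSO, and 9495 and 10317 in AHR KO FICZ. Anxa1 read 4769 to 6690 in WT and 7511 to 8980 in AHR KO, and Anxa8 4061 to 5317 in WT and 5932 to 6547 in AHR KO. All 5 annexins, Anxa2 and Anxa5 included, had every AHR KO library above every WT library, beside 7.76% of all genes. The differences of Anxa3 were 0.63 ± 0.09 and 0.80 ± 0.09 on the log2 scale, those of Anxa1 0.52 ± 0.10 and 0.61 ± 0.09, and those of Anxa8 0.47 ± 0.10 and 0.46 ± 0.09. Anxa2 was called under FICZ alone (0.27 ± 0.09, limma adjusted p = 0.0496), and Anxa5 under neither treatment (0.20 ± 0.07 and 0.18 ± 0.06), although with the replicate block Anxa5 was called under both (0.27 and 0.22, limma adjusted p = 0.0490 and 0.0324).

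Among the S100 proteins, small calcium sensors, S100a10, which pairs with Anxa2 at the membrane, rose in AHR KO under both treatments, by 0.30 ± 0.06 and 0.40 ± 0.06. S100a6 and S100a14 were called under FICZ, by 0.23 ± 0.06 and 0.44 ± 0.10, and S100a11 under neither. Under DMSO S100a6 was at 0.24 ± 0.07 (limma, adjusted p = 0.0511) and was called in 11 alternatives, with the replicate block among them (0.31, adjusted p = 0.0275). S100a14 read 4622 and 4170 in WT DMSO, 2717, 3481 and 2810 in WT FICZ, 4625 and 4809 in AHR KO DMSO, and 3944 and 4143 in AHR KO FICZ. Its genotype difference under FICZ thus stood beside a low level in WT FICZ.

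Ly6a encodes Sca-1. It read 31717 and 32567 in WT DMSO, 26744, 30438 and 29499 in WT FICZ, 35342 and 35067 in AHR KO DMSO, and 36157 and 33653 in AHR KO FICZ. No AHR KO library overlapped a WT library, but the difference was 0.13 ± 0.07 under DMSO and 0.27 ± 0.06 under FICZ, with adjusted p of 0.293 and 0.0139 in limma, the latter a call that was lost without AHR KO FICZ replicate 1 and with only the groups compared (adjusted p = 0.0521). With quantile normalization the DMSO difference of Ly6a was 0.30 and was called (limma, adjusted p = 0.0277). Of the other Ly6 proteins, Ly6e was higher in AHR KO by 0.28 ± 0.07 and 0.29 ± 0.07, and Ly6c1 under FICZ by 0.71 ± 0.16. Both FICZ calls were also lost without AHR KO FICZ replicate 1. The DMSO call of Ly6e was lost with the replicate block (0.26, limma adjusted p = 0.0947) and with no filter (adjusted p = 0.0826), and its value was 0.48 with quantile normalization. Ly6d and the urokinase receptor Plaur were called in neither genotype comparison.

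Krt7, a keratin of simple and ductal epithelia, read 38868 and 36210 in WT DMSO, 31952, 30982 and 32203 in WT FICZ, 59467 and 63916 in AHR KO DMSO, and 44012 and 52258 in AHR KO FICZ. It was higher in AHR KO by 0.72 ± 0.08 under DMSO and 0.60 ± 0.08 under FICZ. Emp2, a membrane protein of the PMP22 family, was higher by 0.24 ± 0.06 and 0.38 ± 0.06. Its relative Emp1 went the other way under FICZ, with 24369, 29182 and 28129 in WT and 20659 and 17333 in AHR KO, a difference of -0.52 ± 0.09 (limma, adjusted p = 0.00240). Sprr1a, which is cross-linked into the envelope of squamous cells, read 54.3 to 98.5 over all libraries with no call.

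Within the cytoskeleton and lamina group, Basp1 had the largest fold of the 32 members tested. It read 54.5 and 23.5 in WT DMSO, 19.7, 20.5 and 21.9 in WT FICZ, 203 and 136 in AHR KO DMSO, and 149 and 261 in AHR KO FICZ. The differences were 2.18 ± 0.39 and 3.19 ± 0.35 on the log2 scale, with limma adjusted p of 0.00702 and 0.000162. The spread within groups was wide, except in WT FICZ. The call under DMSO was lost without AHR KO DMSO replicate 1. The tropomyosin Tpm4, which coats actin filaments, and the tubulin Tubb6 were called higher in AHR KO under FICZ, by 0.35 ± 0.06 and 0.55 ± 0.10. Tpm1, the actin-binding Tagln2 and the nuclear lamin Lmna were called in neither comparison. Reg3b, under the filter, read 1.76 to 7.39 in WT and 9.67 to 12.5 in AHR KO, and Reg3g overlapped between genotypes. Neither was called when fitted without the filter.

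**Figure D3:**
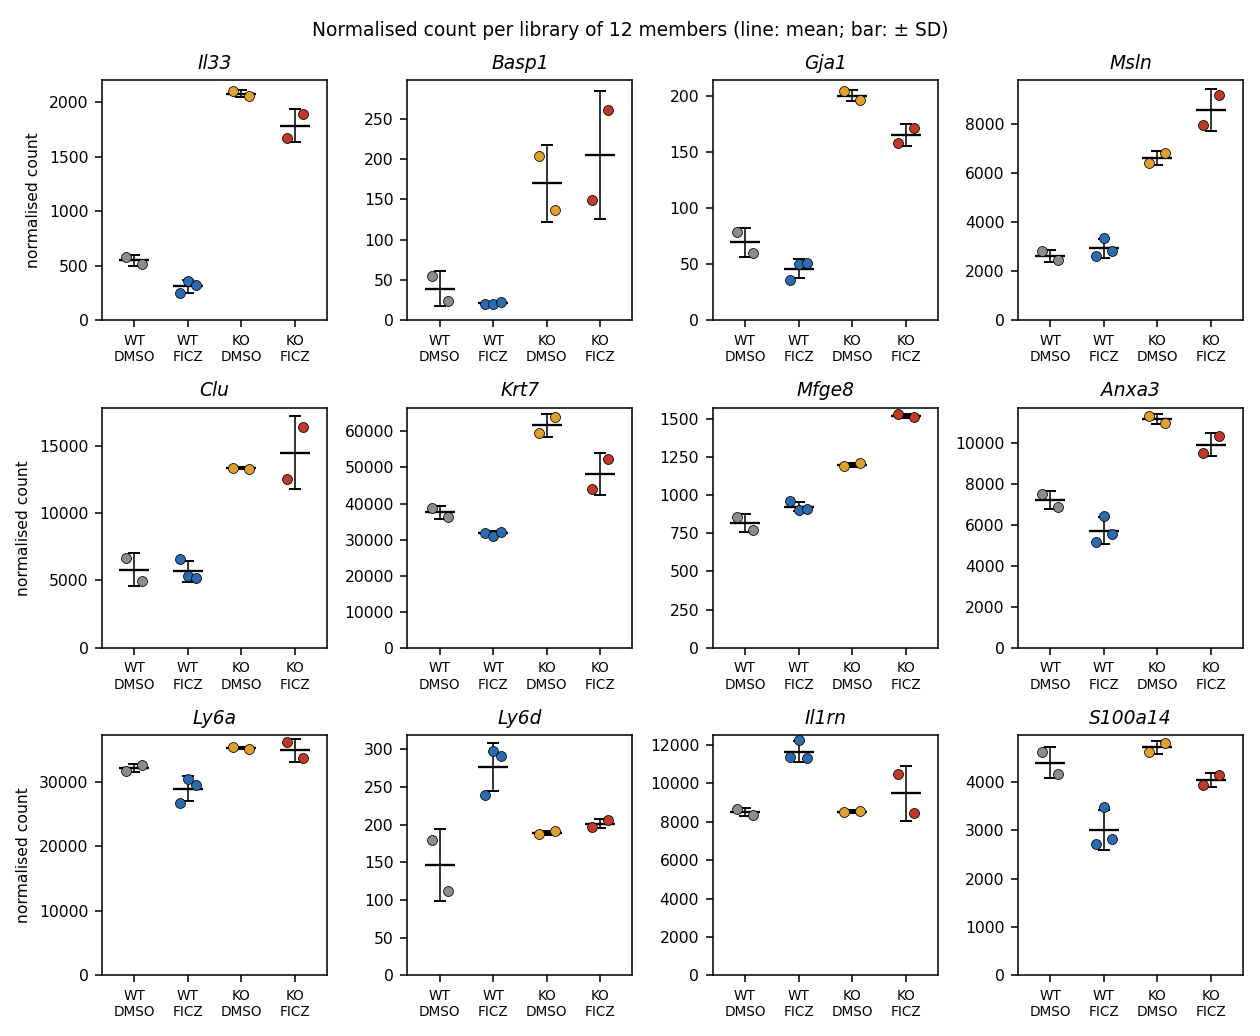
Normalised counts of 12 members in the 9 libraries (points), with the group mean (line) and SD (bar), on linear axes that start at 0. AHR KO libraries lie above all WT libraries for Il33, Basp1, Gja1, Msln, Clu, Krt7, Mfge8, Anxa3 and Ly6a, while Ly6d and Il1rn are highest in WT FICZ.

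The count of members called under DMSO was 8 when WT DMSO replicate 3, AHR KO DMSO replicate 1 or AHR KO DMSO replicate 3 was left out, when the count over all genes fell from 1153 to 585, 452 and 389. Leaving out 1 of these 3 libraries or, for some genes, WT DMSO replicate 2 or WT FICZ replicate 3 ended the DMSO call of Anxa1, Anxa8, Ecm1, Emp2, Ly6e, S100a10 or Basp1. Under FICZ, the calls of Anxa8, Ecm1, Il1rn, S100a14, S100a6, Plau and Anxa2 were lost without AHR KO FICZ replicate 3, those of S100a6 and Plau also without WT FICZ replicate 1, that of S100a6 without WT FICZ replicate 3, and that of Anxa2 without any library but WT FICZ replicate 2. The DMSO difference of Anxa8 was 0.27 without WT DMSO replicate 3. The DMSO call of Emp2 was also lost with no filter, the FICZ calls of S100a6 and Anxa2 with only the groups compared, and that of Anxa2 with no filter and a pseudocount of 0.1. Under every setting in which they were fitted, 7 members were called under DMSO (Anxa3, Clu, Gja1, Il33, Krt7, Mfge8 and Msln), and 14 under FICZ, beside 2.48% and 8.41% of all genes. Other members gained a call. Under DMSO these were Anxa2 (quantile normalization, only the groups compared), Tpm4 (these, the replicate block, without WT FICZ replicate 2), Tubb6 (the replicate block, without AHR KO FICZ replicate 1) and Ly6d (without WT DMSO replicate 2). Under FICZ these were Anxa5 (quantile normalization, GC and length trend removed, without WT FICZ replicate 2), Tagln2 (quantile normalization) and, lower in AHR KO, Ly6d (without either WT DMSO library). After the GC and length trend was removed, 15 and 25 members were called, beside 9.75% and 21.5% of all genes.

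In WT organoids members were called in both directions with FICZ, as were genes in general. The median log2 change was -0.05 over the members and -0.01 over all genes. Of 32 members 15 were called, 6 higher and 9 lower with FICZ, and 30.8% of all genes were called in this comparison (15.1% higher and 15.7% lower), so the members' share was 46.9%. The members that rose were Ly6d, Il1rn, Plaur, Lmna, Ly6e and Tagln2, and those that fell were Il33, Gja1, S100a14, Anxa3, Tpm1, Tpm4, Anxa1, Krt7 and S100a10. The split was 7 higher and 6 lower with quantile normalization, 3 and 5 with the GC and length trend removed, 5 and 2 without WT DMSO replicate 2, and 3 and 10 without WT DMSO replicate 3. In AHR KO organoids 5 members were called, Msln, Mfge8, Tagln2 and Ly6e higher and Krt7 lower, beside 19.7% of all genes (10.2% higher and 9.48% lower).

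Il33 fell in WT by 0.84 ± 0.14 on the log2 scale (limma, adjusted p = 0.00170), with no overlap between DMSO and FICZ libraries, and in AHR KO the change was -0.22 ± 0.15 (adjusted p = 0.326). S100a14 fell in WT by 0.56 ± 0.10 and was at -0.22 ± 0.11 in AHR KO, where it was called with the replicate block (limma, adjusted p = 0.0378), with only the groups compared and without WT FICZ replicate 2. The tropomyosins Tpm1 and Tpm4 fell by 0.29 ± 0.06 each in WT, calls that were lost without WT DMSO replicate 2. Gja1 changed by -0.59 ± 0.20 in WT, but its call was lost with the replicate block (-0.50, limma adjusted p = 0.0864), with the GC and length trend removed (-0.42, adjusted p = 0.161), with only the groups compared, with no filter, and without any library but WT DMSO replicate 3, WT FICZ replicate 2 or WT FICZ replicate 3 (-0.40 without WT DMSO replicate 2). Ly6d rose most. It read 180 and 112 in WT DMSO, 239, 297 and 291 in WT FICZ, 187 and 191 in AHR KO DMSO, and 197 and 206 in AHR KO FICZ. Its change was 0.95 ± 0.18 in WT (limma, adjusted p = 0.00412) and 0.09 ± 0.20 in AHR KO. Without WT DMSO replicate 3 the change of Ly6d in WT was 0.61, still called. Il1rn rose in WT by 0.45 ± 0.08 and changed by 0.14 ± 0.09 in AHR KO, where 1 FICZ library lay below both DMSO libraries.

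Tagln2, Ly6e and Krt7 were called in the same direction in both genotypes. Tagln2 rose by 0.22 ± 0.04 in WT and 0.29 ± 0.05 in AHR KO, Ly6e by 0.27 ± 0.07 and 0.28 ± 0.07, and Krt7 fell by 0.24 ± 0.08 and 0.36 ± 0.08. With the GC and length trend removed, Tagln2 was at 0.06 and 0.12 and Ly6e at 0.10 and 0.10, none of them called. The call of Krt7 in WT was lost with the replicate block (limma, adjusted p = 0.0786), with quantile normalization, with no filter and without any 1 of the 5 WT libraries, and that in AHR KO without AHR KO DMSO replicate 1 or 3 or AHR KO FICZ replicate 1 (-0.24). Ly6a was not called in WT (-0.16 ± 0.06, limma adjusted p = 0.0922), except without WT FICZ replicate 2 (-0.19, adjusted p = 0.0344), or in AHR KO (-0.01 ± 0.07). Clu, at -0.03 ± 0.15 in WT and 0.11 ± 0.16 in AHR KO, was called in neither.

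**Figure D4:**
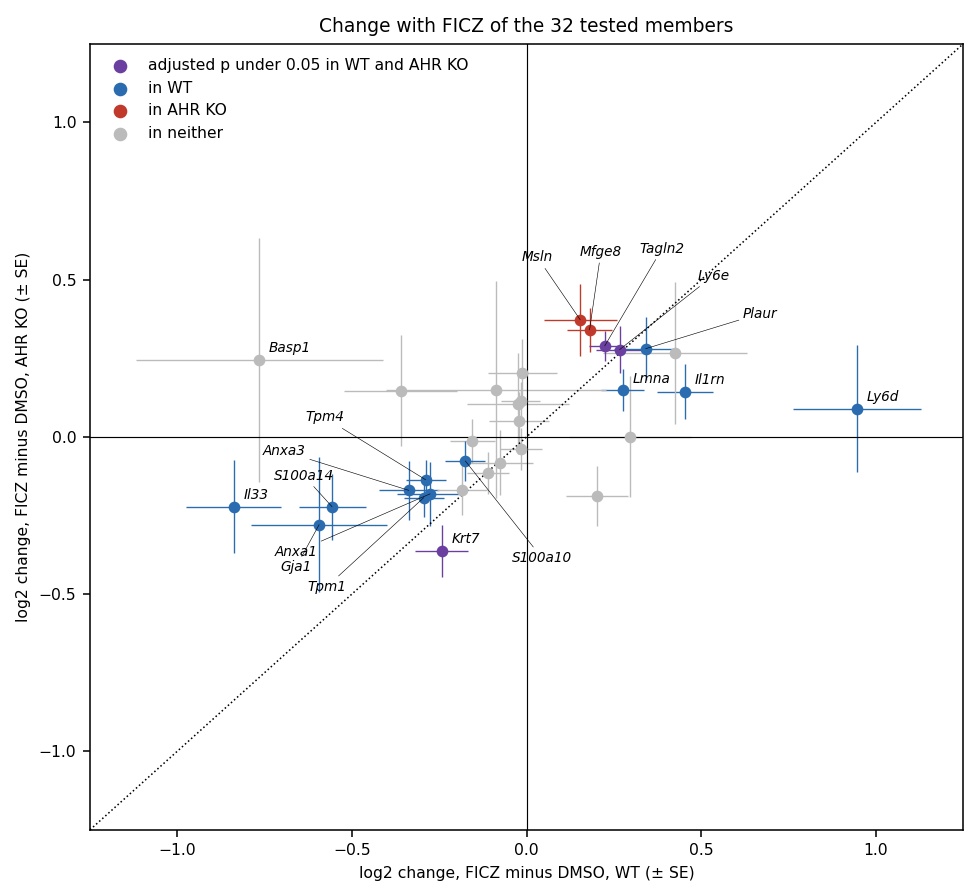
Log2 change with FICZ in AHR KO (vertical axis) against that in WT (horizontal axis) for the 32 tested members, with SE bars, colours for the adjusted p in each genotype and a dotted line of equal change. Among the called members, Il33, Gja1 and S100a14 lie furthest to the left and Ly6d furthest to the right, while Tagln2, Ly6e and Krt7 carry the colour of a call in both genotypes.

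Members that rose in WT had a median GC content of 53.6% (41.6 to 55.8%) and those that fell 47.3% (42.2 to 52.9%), beside 49.4% over all genes tested. GC content overlapped between the directions. After a trend over GC and length together was removed, 8 members were called in WT, 7 of the 15 above (Il1rn, Ly6d, Il33, S100a14, Krt7, Tpm1 and Tpm4) and Emp1, beside 18.2% of all genes, and 2 in AHR KO, Krt7 and Il1rn, beside 5.39%. The count in WT was 7 without WT DMSO replicate 2. In AHR KO it was 0 without AHR KO DMSO replicate 1, 2 without AHR KO DMSO replicate 3 or AHR KO FICZ replicate 1, and 8 without WT FICZ replicate 2. Over all genes the count fell from 3928 to 1993 in the first case, and in AHR KO from 2509 to 419, 1256 and 1558, and rose to 2957. Among the WT calls, those of Anxa3 and Ly6e were lost without WT DMSO replicate 2, those of Lmna, Plaur and Tagln2 without WT DMSO replicate 3, that of Anxa1 without any library but WT DMSO replicate 3 or WT FICZ replicate 2, and that of S100a10 without any library but WT FICZ replicate 2. The calls of Anxa1 and S100a10 in WT were also lost with TMM scaling, with quantile normalization, with no filter and with only the groups compared, and that of S100a10 (-0.18 ± 0.06) with the replicate block (-0.14, limma adjusted p = 0.0750). Anxa1 was at -0.28 in WT, at -0.17 without WT DMSO replicate 2 and at -0.11 with the GC and length trend removed. Among the AHR KO calls, those of Mfge8 and Tagln2 were lost without AHR KO DMSO replicate 1, that of Ly6e without any 1 of the 4 AHR KO libraries, and that of Msln without any library but WT FICZ replicate 1 or 2. The AHR KO calls of Ly6e and Msln were also lost with no filter, and that of Ly6e with quantile normalization. Members that gained a call in WT were Anxa8, Basp1 and Plau, lower without WT DMSO replicate 3, Ly6c1, lower without WT FICZ replicate 2, Emp1, higher with quantile normalization and without WT FICZ replicate 1, Mfge8, higher with TMM scaling and at a mean of 100 or more, and Msln, higher with the replicate block (0.24, limma adjusted p = 0.0153). In AHR KO these were Il1rn without AHR KO FICZ replicate 3, Plaur with the replicate block (adjusted p = 0.0386), only the groups compared and without WT FICZ replicate 2, and Tpm1, lower at a mean of 100 or more, with the line as a random effect and without WT FICZ replicate 2. Under every setting in which they were fitted, 4 members were called with FICZ in WT (Il1rn, Il33, Ly6d and S100a14) and 0 in AHR KO, beside 8.61% and 1.68% of all genes.

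Whether the response to FICZ depended on genotype was tested as an interaction, subtracting the AHR KO change from the WT change. No member was called by limma, beside 57 of 12741 genes (0.447%, with 0.377% higher and 0.0706% lower), and 5 had an unadjusted p under 0.05, beside 7.47% of all genes. No alternative fit called a member either, the one without the GC and length trend included, which called 0.504% of all genes. The 5 were Ly6d (0.86 ± 0.27, adjusted p = 0.40), Il33 (-0.62 ± 0.20, 0.414), Emp1 (0.39 ± 0.13, 0.444), Il1rn (0.31 ± 0.12, 0.554) and S100a14 (-0.33 ± 0.14, 0.634). The 95% interval for Il33 ran from -1.07 to -0.17 and that for Ly6d from 0.25 to 1.46. For Clu the interval was -0.61 to 0.35 and for Ly6a -0.35 to 0.07.

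Of 28 other fetal-like and repair genes, 25 were tested. Under DMSO 7 were called higher and 5 lower in AHR KO, beside 4.21% and 4.83% of all genes. Under FICZ 12 were called higher and 4 lower, beside 9.48% and 10.5%. With FICZ 6 were called higher and 4 lower in WT, beside 15.1% and 15.7% of all genes. In AHR KO 4 were called higher and 1 lower with FICZ, beside 10.2% and 9.48%. Among those higher in AHR KO under both treatments were the YAP target genes Ccn1, Ccn2, Ankrd1 and Amotl2, the matrix protease Mmp7 and the adaptor Ajuba. The DMSO call of Ankrd1 was lost without AHR KO DMSO replicate 1. That of Ajuba was lost without WT DMSO replicate 3 or AHR KO DMSO replicate 3, and its FICZ call without WT FICZ replicate 3 or AHR KO FICZ replicate 3. Mmp7 read 299 to 402 in WT and 1337 to 1675 in AHR KO, and Ccn2 2467 and 2370 in WT DMSO, 992 to 1174 in WT FICZ and 5338 to 6618 in AHR KO. Their differences were 2.06 ± 0.15 and 2.31 ± 0.14 for Mmp7, and 1.18 ± 0.09 and 2.51 ± 0.08 for Ccn2. The EGF receptor ligands Areg and Ereg were lower in AHR KO under FICZ, by -0.80 ± 0.10 and -1.19 ± 0.07. Under DMSO they were at -0.43 ± 0.11 and -0.29 ± 0.08. The DMSO call of Areg was lost with no filter and without WT DMSO replicate 2 (-0.27), AHR KO DMSO replicate 1 or AHR KO DMSO replicate 3. The DMSO call of Ereg was lost without these 3 libraries, WT FICZ replicate 1 or WT FICZ replicate 3, and with the replicate block (-0.24, limma adjusted p = 0.147), quantile normalization, no filter or only the groups compared. The TWEAK receptor Tnfrsf12a was higher in AHR KO under FICZ (0.62 ± 0.07), and Lgals3 (-0.59 ± 0.10) and Ptgs2 (-2.22 ± 0.17) were lower there. With FICZ the mean of Tnfrsf12a rose from 1561 to 2666 in AHR KO, and that of Lgals3 from 10323 to 14344 in WT. Both rises were called under every setting in which they were fitted. In WT Tnfrsf12a rose from 1426 to 1743, a call lost with the GC and length trend removed or without either WT DMSO library. Under DMSO F3 was at -0.52 ± 0.13 and Hmga2 at -0.39 ± 0.08, both called. Each call was lost without WT DMSO replicate 2 (F3 at -0.31), AHR KO DMSO replicate 1 or AHR KO DMSO replicate 3. That of F3 was also lost without WT FICZ replicate 3 or with no filter, and that of Hmga2 without WT DMSO replicate 3. Under FICZ the mean of F3 was 3416 in WT and 4020 in AHR KO. With FICZ in WT, F3 fell from a mean of 6193 to 3416 and Hmga2 from 1354 to 954. Both falls were called under every setting in which they were fitted. In AHR KO, Hmga2 was also called lower with FICZ, with log2 values of -0.36 to -0.21 over the alternatives. That call was lost with the GC and length trend removed (-0.21). It was also lost without AHR KO DMSO replicate 1, AHR KO DMSO replicate 3 or AHR KO FICZ replicate 3.

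Relatives of the members did not all share their direction. Of 11 other Ly6 family genes tested, 2 were called lower in AHR KO under DMSO and 4 under FICZ, and none higher. The shares of all genes called lower were 4.83% and 10.5%. The abundant ones were Lypd8, a colonocyte protein that keeps bacteria from the epithelium, with 34466 to 42513 in WT and 11520 to 17915 in AHR KO, and Ly6g, lower under DMSO by -0.84 ± 0.15. Of 5 other annexins tested 1 was called higher in AHR KO under DMSO and 2 under FICZ, beside 4.21% and 9.48% of all genes. The abundant Anxa4, Anxa7 and Anxa11 were called in neither. S100a16, the keratins Krt8 and Krt19, the tubulins Tubb4b and Tubb5, the lamins Lmnb1 and Lmnb2, the tropomyosin Tpm3 and the protease inhibitor Serpinb6a were likewise called in neither genotype comparison. Krt18 was higher in AHR KO under FICZ by 0.38 ± 0.07, Cnn2 by 0.23 ± 0.06 and Il1rap, a subunit of the Il33 receptor, by 0.54 ± 0.06. Of 4 integrin genes tested whose proteins bind Spp1 or Mfge8, 3 were called higher in AHR KO under FICZ, beside 9.48% of all genes. These were Itgav by 0.41, Itgb1 by 0.22 and Itgb6 by 0.76 on the log2 scale. Under DMSO none was called.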

How the data were processed

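The authors deposited 1 table of normalised counts (a signal unit, not whole numbers) for 9 libraries. The submitters' processing notes name STAR 2.5.2a, RSEM 1.2.31, DESeq2 1.16.1 and the build GRCm38, and whether reads were counted by strand was not given in the sources used here. Of 48795 Ensembl identifiers 99.3% matched GENCODE M21. Members and lists were chosen with earlier results of these data known. Groups came from the sample labels. Genes with a mean of 10 or more (12741, of which 32 of 36 members) were fitted on log2(value + 1) with limma 3.58.1 in R 4.3.3, with group means over all 9 libraries, trended eBayes and two-sided tests, adjusted by Benjamini-Hochberg over all genes. Because values are not whole reads, no count model was run, so fold changes are on the log2(value + 1) scale, which understates changes of low genes, and counting intervals are not given. Scripts were tested on simulated data. All 36 members are reported, other fetal-like genes where called in the interaction or in at least 2 comparisons, and family genes at a mean of 1000 or more. Some listed genes are not reported here. Alternatives changed the pseudocount (0.1 or 10), filter, scaling (TMM or quantile), samples, block, and GC and length trend. Same-numbered libraries of 1 genotype deviated together with correlations of 0.035 to 0.050, and pairs with different numbers ranged from -0.083 to 0.083.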

Additional observations from a re-analysis of the deposited data

Results flagged for a closer look

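Of 25 other fetal-like and repair genes tested, 4 responded to FICZ differently in WT and AHR KO by the interaction test in limma. Over all genes 57 of 12741 (0.447%) were called, and none of the 32 members tested. The differences of the log2 changes (WT minus AHR KO) were -0.81 ± 0.13 for Ccn1 (adjusted p = 0.0222), -1.33 ± 0.12 for Ccn2 (adjusted p = 0.000575), 0.90 ± 0.10 for Ereg (adjusted p = 0.00362) and 1.66 ± 0.25 for Ptgs2 (adjusted p = 0.0206). Ccn1 and Ccn2, secreted matrix proteins, fell with FICZ in WT, by 0.70 ± 0.09 and 1.15 ± 0.08, with no overlap between DMSO and FICZ libraries. Ereg, an EGF receptor ligand, and Ptgs2, the inducible prostaglandin synthase, rose in WT, by 0.74 ± 0.07 and 1.39 ± 0.17. None of the 4 was called with FICZ in AHR KO. The adjusted p of Ccn1 ranged from 0.0178 to 0.160 over the alternatives and that of Ptgs2 from 0.00569 to 0.128. Each of these 2 calls was lost when 1 of 5 libraries was left out, and that of Ccn1 also with the replicate block (adjusted p = 0.0565). The ranges were 0.000381 to 0.00857 for Ccn2 and 0.00272 to 0.0288 for Ereg.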

How the results depend on the processing

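The count of members called with FICZ fell from 15 to 8 in WT and from 5 to 2 in AHR KO once the GC and length trend was taken out, and to 3 in AHR KO with no filter on low values. Leaving out 1 library gave 7 to 16 members in WT, 0 to 8 in AHR KO, 8 to 16 for genotype under DMSO and 17 to 25 under FICZ, and 0 for the interaction. All other counts stayed within 1.5 times, including those with a replicate block (13, 7, 0, 18 and 25 for FICZ in WT, FICZ in AHR KO, interaction, and genotype under DMSO and FICZ). Whether same-numbered libraries of 1 genotype share a line is not stated by the labels. The block also joins WT with AHR KO libraries of the same number, which cannot be 1 line. Since correlations between same-numbered libraries of 1 genotype were low, the fit without the block is the one reported. Among member contrasts called in any fit, 6 log2 values changed sign. For FICZ in WT these were Mfge8 (-0.013) and Msln (-0.014) without the GC and length trend, Plau with the replicate block (0.032), and, with 1 library left out, Plau (-0.76 to 0.58) and Anxa8 (-0.27 to 0.12), both positive without WT DMSO replicate 2. For FICZ in AHR KO, Il1rn ran from -0.010 without AHR KO FICZ replicate 1 to 0.30 without replicate 3. Another 86 sign changes concern contrasts called in no fit. The cause was not tested. The median level per length was 1691 per kb with merged exons.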

Other observations

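Relatives of the members that are named here were chosen after their values were seen. The annexin Anxa6 read 112 to 171 in WT and 367 to 419 in AHR KO libraries, a difference of 1.27 ± 0.17 under DMSO and 1.55 ± 0.15 under FICZ. The calponin Cnn3, which binds actin, read 390 to 666 in WT and 1199 to 1457 in AHR KO. Tissue plasminogen activator (Plat), which cleaves plasminogen as Plau does, read 216 to 274 in WT and 766 to 1050 in AHR KO. The differentiation keratin Krt20 was lower in AHR KO, with 429 to 692 against 853 to 1149, and so was the IL-1 family cytokine Il18, with 47.9 to 81.5 against 157 to 215. Each of these 5 genes was called by limma under both treatments.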
